A study of Drosophila melanogaster with 4 samples.

Results

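The mitochondrial ribosomal protein genes of Drosophila melanogaster were described here, taken as all genes measured by a probe of their own whose current FlyBase symbol starts with mRpL (large subunit) or mRpS (small subunit). Of 8210 genes with a value on 3 or more arrays, 63 met this rule, 43 of the large and 20 of the small subunit, and all 63 had a value on all 4 arrays. A further 10 genes with such a symbol in the RefSeq gene table were not measured by a probe of their own, namely mRpL13, mRpL27, mRpL34, mRpL53, mRpS14, mRpS18A, mRpS18C, mRpS21, mRpS23 and mRpS25. Total RNA of laser wounded embryos was hybridised together with total RNA of unwounded embryos on arrays of spotted cDNA clones, once in each of 4 experiments, numbered 3, 4, 7 and 8. All embryos carried the actin reporter sGMCA, were collected over 0 to 1 h of development, had the chorion removed by hand, lay in halocarbon oil and were frozen at 0 min, right after the laser wounds or after the same handling without wounds. The wounded sample was labelled with Cy3 in experiments 3, 7 and 8 and with Cy5 in experiment 4, the dye swap. The RNA came from whole embryos, so RNA from the wounded area was not read apart from the remainder. As equal amounts of total RNA from wounded and unwounded embryos were labelled, the ratios give neither RNA per embryo nor mitochondria per embryo.

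Each value is a deposited log2 ratio of both channels at a spot, averaged over the spots of a gene. The labels and methods do not say which channel is the numerator, so no value is read as higher or lower in wounded embryos. The sign given for an array is that of its deposited ratio, and the sign given for a mean follows the orientation of the deposited ratios in experiments 3, 7 and 8. Experiments 3, 7 and 8 share a dye orientation and run the same way under either reading. Means over arrays are given with experiment 4 turned (its sign reversed, as for Cy5 over Cy3) and with experiment 4 not turned. The ratios carry no intensities, so expression levels and the labelled tissue could not be checked from them. The experiments are called independent in the series record, but no separate cultures are named, and p-values therefore reflect only how much these samples varied, which may be technical.

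Mitochondrial ribosomes translate the few proteins encoded in mitochondrial DNA, all of them subunits of the respiratory chain and ATP synthase in animals. Their RNA is made in the mitochondrion, whereas their proteins are encoded in the nucleus, translated in the cytoplasm and imported. Some of these proteins have bacterial counterparts and others were added in mitochondria. The early fly embryo draws on mRNAs and mitochondria laid down by the mother, before most of its own genes are transcribed.

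The 63 genes lay mostly above 0 in experiment 7 and mostly below 0 in experiment 8, although both arrays have the same dye orientation. In experiment 7, 52 of 63 genes were above 0 (all genes 52.8%), with a median deposited log2 ratio of 0.16, and 32 of 63 (50.8%) were in the highest 25% of all genes. In experiment 8, 52 of 63 genes were below 0 (all genes 53.9%), with a median of -0.12, and 29 of 63 (46.0%) were in the lowest 25%. The opposite ends held few of them, with 3 genes in the lowest 25% in experiment 7 and 3 in the highest 25% in experiment 8. In experiment 3, 20 of 63 genes were above 0 (all genes 42.9%) and the median was -0.056. In experiment 4, 18 of 63 genes were above 0 (all genes 49.3%) and the median was again -0.056. The other genes had medians of -0.029, -0.0021, 0.013 and -0.016 in experiments 3, 4, 7 and 8.

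**Figure D1:**
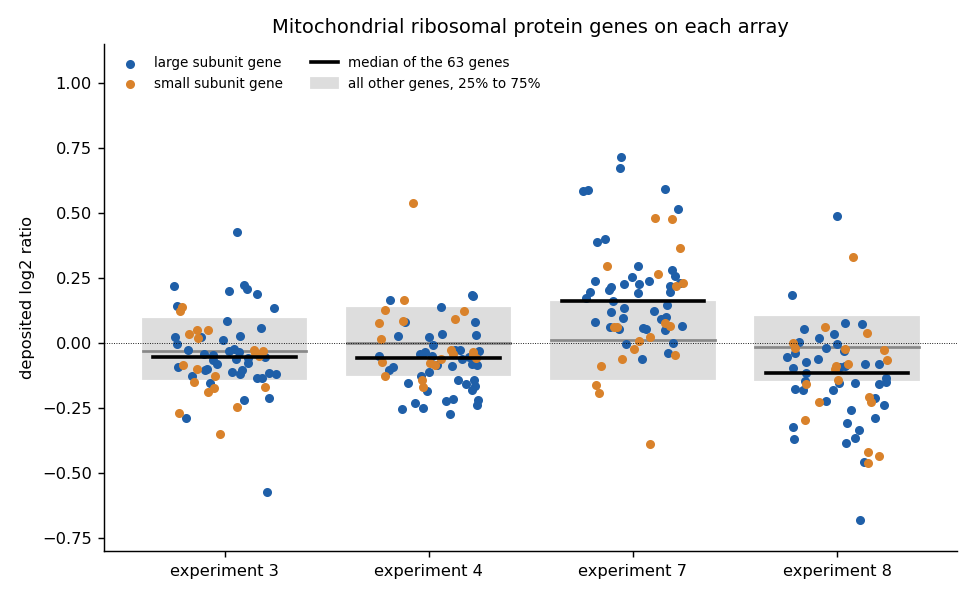
Deposited log2 ratio (vertical axis) of the 63 mitochondrial ribosomal protein genes on each of the 4 arrays (horizontal axis), with 1 point per gene, the median of the 63 genes as a black line, and the 25% to 75% range and median of all other genes as a grey box and line. The black line is above the grey one in experiment 7 (0.16) and below it in experiment 8 (-0.12).

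On each array the values of the 63 genes lay closer together than those of all other genes. The standard deviation over the 63 genes was 0.154, 0.139, 0.210 and 0.188 in experiments 3, 4, 7 and 8. Over all other genes it was 0.338, 0.255, 0.285 and 0.249. The 25% to 75% ranges spanned 0.15, 0.17, 0.20 and 0.20 over the 63 genes and 0.23, 0.26, 0.30 and 0.24 over all other genes. Closeness was not particular to the 63 genes. The standard deviation was 0.107, 0.123, 0.175 and 0.146 over oxidative phosphorylation subunit genes, listed below, smaller on every array. Over cytoplasmic ribosomal protein genes it was 0.143, 0.163, 0.217 and 0.218. No gene of the 63 reached a ratio of 1.5-fold in size in experiment 3 (all genes 5.46%) or experiment 4 (all genes 2.56%). In experiment 7, 5 genes did (7.94%, all genes 5.06%), and in experiment 8 only mRpL38 did (1.59%, all genes 3.31%).

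Large subunit genes had medians of -0.056, -0.084, 0.20 and -0.14 in experiments 3, 4, 7 and 8, and small subunit genes had medians of -0.068, -0.038, 0.063 and -0.093. In experiment 7, 39 of 43 large subunit genes and 13 of 20 small subunit genes were above 0. In experiment 8, 35 of 43 and 17 of 20 were below 0. The difference between the subunits was not tested. The family number is a rough guide to ancestry, since numbers up to L36 and S21 follow the bacterial names, with exceptions such as mRpL47, mRpS24 and mRpS28. The 35 genes in that number range had medians of 0.14 in experiment 7 and -0.096 in experiment 8, and the 28 genes above it had medians of 0.18 and -0.16. With the 3 exceptions moved to the bacterial side, 38 genes had medians of 0.15 and -0.095 and the remaining 25 had 0.16 and -0.16. The groups then nearly coincided in experiment 7.

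Set against each other gene by gene, the deposited ratio was higher in experiment 7 than in experiment 8 for 55 of 63 genes (87.3%), against 54% of all genes. The median difference was 0.25 on the log2 scale, and 0.032 over all other genes. Experiment 7 was above 0 and experiment 8 below 0 for 42 of 63 genes (all genes 33.7%), and the reverse held for 1 gene, mRpS7 (all genes 26.9%). Experiment 7 was also above experiment 3 for 61 of 63 genes (all genes 55.1%), the exceptions being mRpL20 and mRpS24. Across the 63 genes, Pearson's r was -0.51 and Spearman's rho -0.47 between experiments 7 and 8. Over all genes, r was -0.33. Between experiments 3 and 7, r was 0.62 over the 63 genes and 0.30 over all genes, and between experiments 3 and 8 it was -0.45 and -0.089. Experiment 4 had r of 0.34 with experiment 3, 0.058 with experiment 7 and -0.026 with experiment 8 over the 63 genes. These correlations are across genes of the same arrays, which are not independent replicates, and they describe the arrays only.

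**Figure D2:**
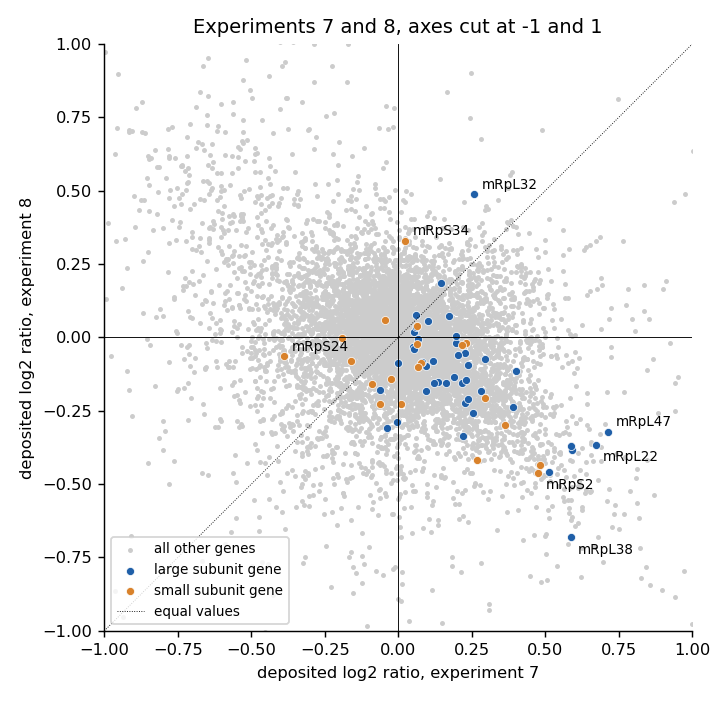
Deposited log2 ratio in experiment 7 (horizontal axis) against experiment 8 (vertical axis), with 1 point per gene, large subunit genes in blue, small subunit genes in orange and all other genes in grey. Of the 63 genes, 55 lie below the dotted line of equal values, and 42 lie to the lower right of the crossing of both zero lines.

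For 11 of 63 genes (17.5%) experiment 7 exceeded experiment 8 by at least 1.5-fold (all genes 6.8%). They were mRpL38, mRpL22, mRpL47, mRpL2, mRpL43, mRpL46, mRpS2, mRpS35, mRpS29, mRpS26 and mRpL3, 7 of the large and 4 of the small subunit, singled out after their values were seen. The difference was 0.66 for mRpS26 and 0.63 for mRpL3, just inside the limit of 0.585, and 0.55 for mRpL55 and 0.52 for mRpL10, just outside it. In experiment 3, which had no part in choosing them, all 11 were above 0, whereas 9 of the other 52 genes were. Of all genes past the same limit, 76.1% were above 0 in experiment 3, and 40.5% of all genes not past it. In experiment 4, 5 of the 11 were above 0. The other 52 genes kept smaller medians of the same sign, 0.098 in experiment 7 and -0.085 in experiment 8, with 41 of 52 above 0 in the former and 41 of 52 below 0 in the latter.

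The genes are given next by the place of their protein in the ribosome, with values in the order of experiments 3, 4, 7 and 8. Members outside the rule for named genes were chosen after their values were seen. Near the peptidyl transferase centre, where peptide bonds are formed, mRpL2 had deposited log2 ratios of 0.19, 0.079, 0.59 and -0.39. Its partner in that region, mRpL3, had 0.20, -0.029, 0.39 and -0.24. Both were highest in experiment 7 and lowest in experiment 8. The protein of mRpL22 lines the tunnel through which the new peptide leaves, and its ratios were 0.14, 0.14, 0.67 and -0.37. Those of mRpL4, which also lines the tunnel, were -0.12, -0.087, 0.20 and -0.019, and those of mRpL23, at the tunnel exit, were -0.077, -0.030, 0.30 and -0.075. All 3 were highest in experiment 7, by a wide gap to the other arrays. At the same exit, mRpL24 differed, with -0.13, -0.17, 0.059 and 0.076, so that experiments 7 and 8 were close together and both above 0. The gene mRpL45, whose protein in mammals docks the ribosome on the inner membrane, had ratios of -0.026, 0.032, 0.20 and 0.0046, with only experiment 7 well away from 0. Its value in experiment 8 averages opposed spots, with -0.13 for clone RE09223 and 0.14 for clone RH28847.

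In the stalk that recruits translation factors, mRpL10 had ratios of 0.023, -0.15, 0.40 and -0.12. The stalk protein gene mRpL12, known in flies for its part in growth, had 0.023, 0.028, 0.22 and -0.16. In the neighbouring factor-binding region, mRpL11 had -0.092, -0.22, 0.24 and -0.094. Experiment 7 was the highest array for all 3, and the lowest was experiment 4 for mRpL10 and mRpL11 and experiment 8 for mRpL12. The other, mobile stalk is built on the L1 protein, and mRpL1 varied least of the 63 genes, with -0.035, -0.084, -0.0020 and -0.088 and a range over arrays of 0.086. The next smallest ranges were those of mRpL14, with -0.14, -0.14, -0.063 and -0.18 and a range of 0.11, and of mRpL16, with -0.063, -0.10, 0.049 and -0.031 and a range of 0.15. All 4 arrays of mRpL1 and mRpL14 were below 0, and mRpL16 was above 0 in experiment 7 alone. The spots of mRpL14 differed in sign in experiment 7, with -0.22 for clone RE74864 and 0.098 for clone RH18819.

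The central protuberance is the crest of the large subunit, where it meets the small one, and in mammals it holds the proteins of mRpL38, mRpL40, mRpL46 and mRpL48. The gene with the widest range of the 63 was mRpL38, with 0.43, 0.18, 0.59 and -0.68. Its lowest array was experiment 8 and its highest experiment 7, with a difference of 1.27 between them. The values of mRpL46 were 0.21, -0.093, 0.59 and -0.37, and those of mRpL40 were 0.13, 0.19, 0.24 and -0.21. Both genes were highest in experiment 7 and lowest in experiment 8, and mRpL40 was above 0 on all arrays but experiment 8. For mRpL48 all 4 values were below 0, with -0.10, -0.055, -0.0038 and -0.29, and experiment 8 was again the lowest.

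Among the other large subunit genes, mRpL47 had the highest ratio of the 63 in experiment 7, with 0.086, -0.087, 0.71 and -0.32 over the 4 arrays. The ratios of mRpL43 were 0.22, -0.16, 0.51 and -0.46, and experiments 4 and 8 were on the other side of 0 from experiments 3 and 7. A different pattern was seen for mRpL32, with -0.080, -0.049, 0.26 and 0.49, where experiment 8 was the highest of the 63 genes on that array and experiments 3 and 4 were near 0. Experiments 7 and 8 were also both above 0 for mRpL37, with 0.028, -0.27, 0.15 and 0.18, and for mRpL33, with -0.0037, -0.14, 0.17 and 0.074. Both genes were lowest in experiment 4. The lowest ratio of the 63 in experiment 3 was that of mRpL15, with -0.57, -0.23, 0.19 and -0.14, and only experiment 7 was above 0. It was likewise the only array above 0 for mRpL51, with -0.21, -0.25, 0.093 and -0.18, for mRpL52, with -0.15, -0.027, 0.16 and -0.15, and for mRpL9, with -0.022, -0.0064, 0.28 and -0.18. The values of mRpL21 were 0.057, -0.13, 0.23 and -0.15, above 0 in experiments 3 and 7. All 4 arrays were above 0 for mRpL20 alone, with 0.22, 0.023, 0.054 and 0.018.

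In the small subunit, which binds the mRNA and reads its codons, mRpS2 had ratios of 0.14, 0.015, 0.48 and -0.46. The values of mRpS35 were 0.048, -0.14, 0.48 and -0.44. The protein of mRpS29, the counterpart of mammalian DAP3, binds GTP, and its gene had 0.12, -0.034, 0.27 and -0.42. These 3 genes were highest in experiment 7 and lowest in experiment 8. Ratios below 0 on all 4 arrays were found for mRpS33, with -0.35, -0.13, -0.16 and -0.080, for mRpS18B, with -0.25, -0.063, -0.090 and -0.16, and for mRpS5, with -0.27, -0.056, -0.19 and -0.0012. They were also found for mRpS10, with -0.19, -0.17, -0.023 and -0.14, and for mRpS6, with -0.13, -0.085, -0.063 and -0.23. In none of these 5 genes did experiment 7 stand above 0. The gene mRpS34 had -0.037, 0.54, 0.024 and 0.33, with experiment 4 the highest of the 63 genes on that array. The lowest of the 63 in experiment 7 was mRpS24, with -0.028, 0.075, -0.39 and -0.064. Of the 8 genes in which experiment 8 was above experiment 7, 5 were of the small subunit (mRpS24, mRpS34, mRpS5, mRpS7 and mRpS33) and 3 of the large (mRpL32, mRpL37 and mRpL24).

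**Figure D3:**
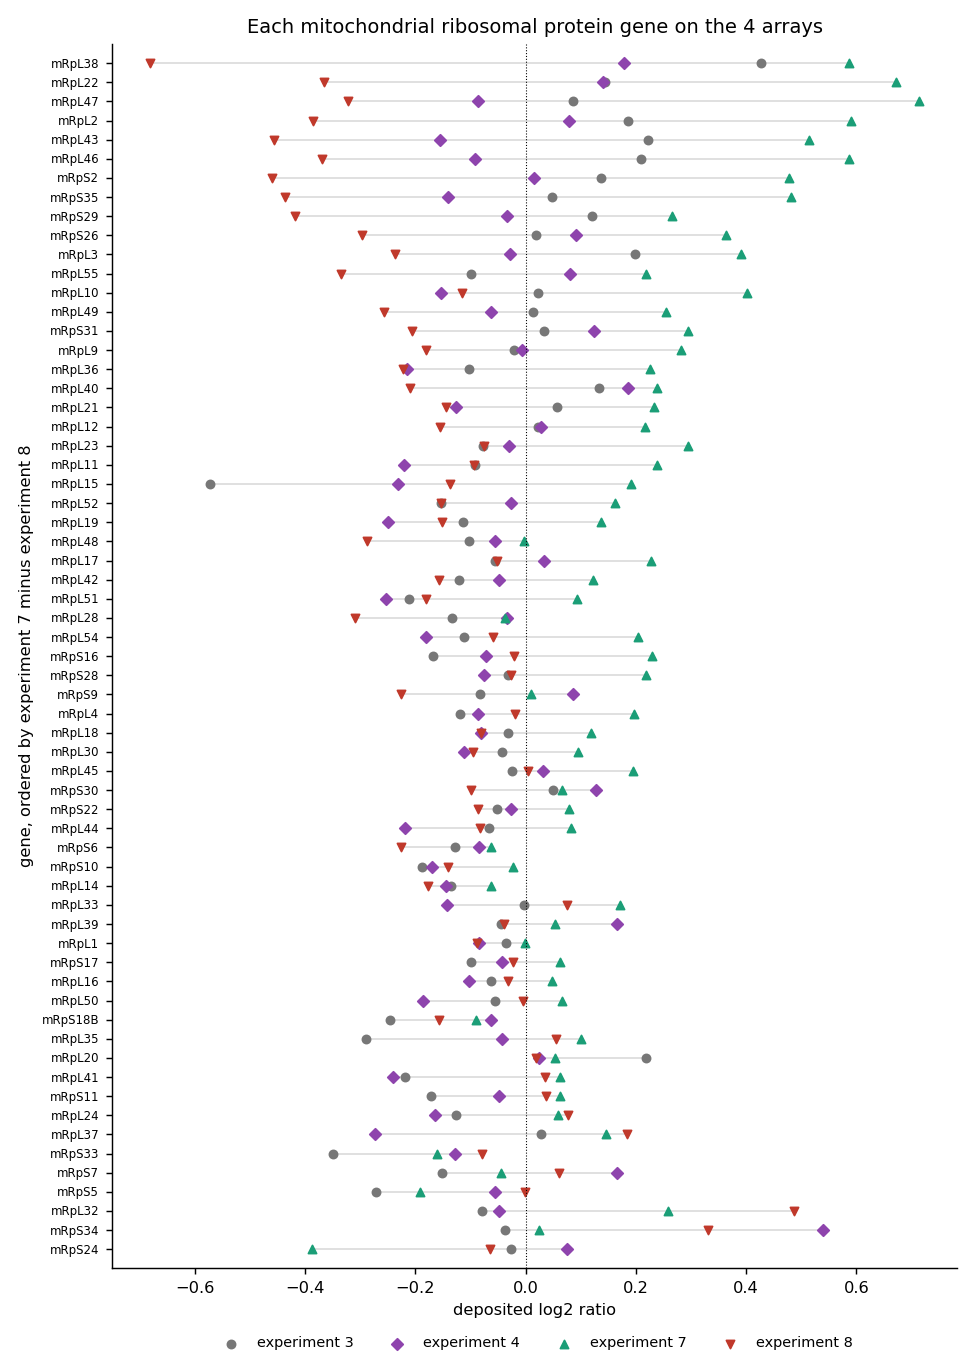
Deposited log2 ratio (horizontal axis) of each of the 63 genes (vertical axis) on the 4 arrays, with 1 marker per array and a grey line over their range, ordered by experiment 7 minus experiment 8. The gap is widest for mRpL38 (1.27) and runs the other way for 8 genes, down to mRpS24 (-0.32).

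A further pair of genes encode small subunit proteins under older names. The gene tko (technical knockout), whose mutants are sensitive to mechanical shock, had ratios of -0.27, -0.078, 0.23 and -0.092, and bonsai had -0.089, -0.0076, 0.23 and -0.13. Both were above 0 in experiment 7 only.

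The question of the arrays was whether RNA levels differ between wounded and unwounded embryos right after wounding. None of the 63 genes passed the limits of an adjusted p of 0.05 and a mean of 1.5-fold in limma, with experiment 4 turned or not turned, or on experiments 3, 7 and 8 alone (0% of 8210 genes in each). None had an unadjusted limma p under 0.05 either, against 4.91% of all genes with experiment 4 turned, 2.5% with it not turned and 4% on experiments 3, 7 and 8. The median of the 63 means was 0.018 with experiment 4 turned, with 36 of 63 means above 0 (all genes 50.5%), and -0.016 with it not turned, with 27 of 63 above 0 (all genes 45.9%). Over all genes the medians were 0.0012 with experiment 4 turned and -0.0098 with it not turned. With experiment 4 turned and experiment 7 left out, the median of the 63 means was -0.050 (all genes -0.0061). Of these means, 14 of 63 were above 0 (all genes 47.5%). With experiment 8 left out instead, the median was 0.055 (all genes -0.0025), and 46 of 63 means were above 0 (all genes 49.1%). With experiment 4 turned, the 95% interval of the mean lay within 1.5-fold in both directions for all 63 genes (all genes 92.2%). With it not turned, this held for 62 genes (all genes 92%), mRpL38 being the exception. On experiments 3, 7 and 8 it held for 56 genes (all genes 84.9%), the exceptions being mRpL2, mRpL15, mRpL22, mRpL38, mRpL43, mRpL46 and mRpL47. The number of arrays limits the precision of these means.

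With experiment 4 turned, the largest means were those of mRpL32, 0.18 in size (n = 4 arrays, SD 0.249, limma adjusted p = 0.998), and of mRpL37, 0.16 in size (n = 4 arrays, SD 0.102, limma adjusted p = 0.998). They were followed by mRpL47, with a mean of 0.14 in size (n = 4 arrays, SD 0.427, limma adjusted p = 0.998), by mRpS24, with 0.14 in size (n = 4 arrays, SD 0.167, limma adjusted p = 0.998), and by mRpL46, with 0.13 in size (n = 4 arrays, SD 0.394, limma adjusted p = 0.998). For mRpL47 and mRpL46 the SD was more than double the mean, and experiment 8 was on the other side of 0 from experiments 3 and 7. With experiment 4 not turned, the largest means were those of mRpS34, 0.21 in size (n = 4 arrays, SD 0.27, limma adjusted p = 0.997), mRpL15, 0.19 in size (n = 4 arrays, SD 0.314, limma adjusted p = 0.997), and mRpS33, 0.18 in size (n = 4 arrays, SD 0.119, limma adjusted p = 0.997). The next were mRpL32, with 0.15 in size (n = 4 arrays, SD 0.27, limma adjusted p = 0.997), and mRpL22, with 0.15 in size (n = 4 arrays, SD 0.424, limma adjusted p = 0.997). None of these means passed the test against the spread between arrays. The smallest unadjusted limma p was 0.0692 for mRpL37 with experiment 4 turned and 0.0529 for mRpS33 with it not turned.

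**Figure D4:**
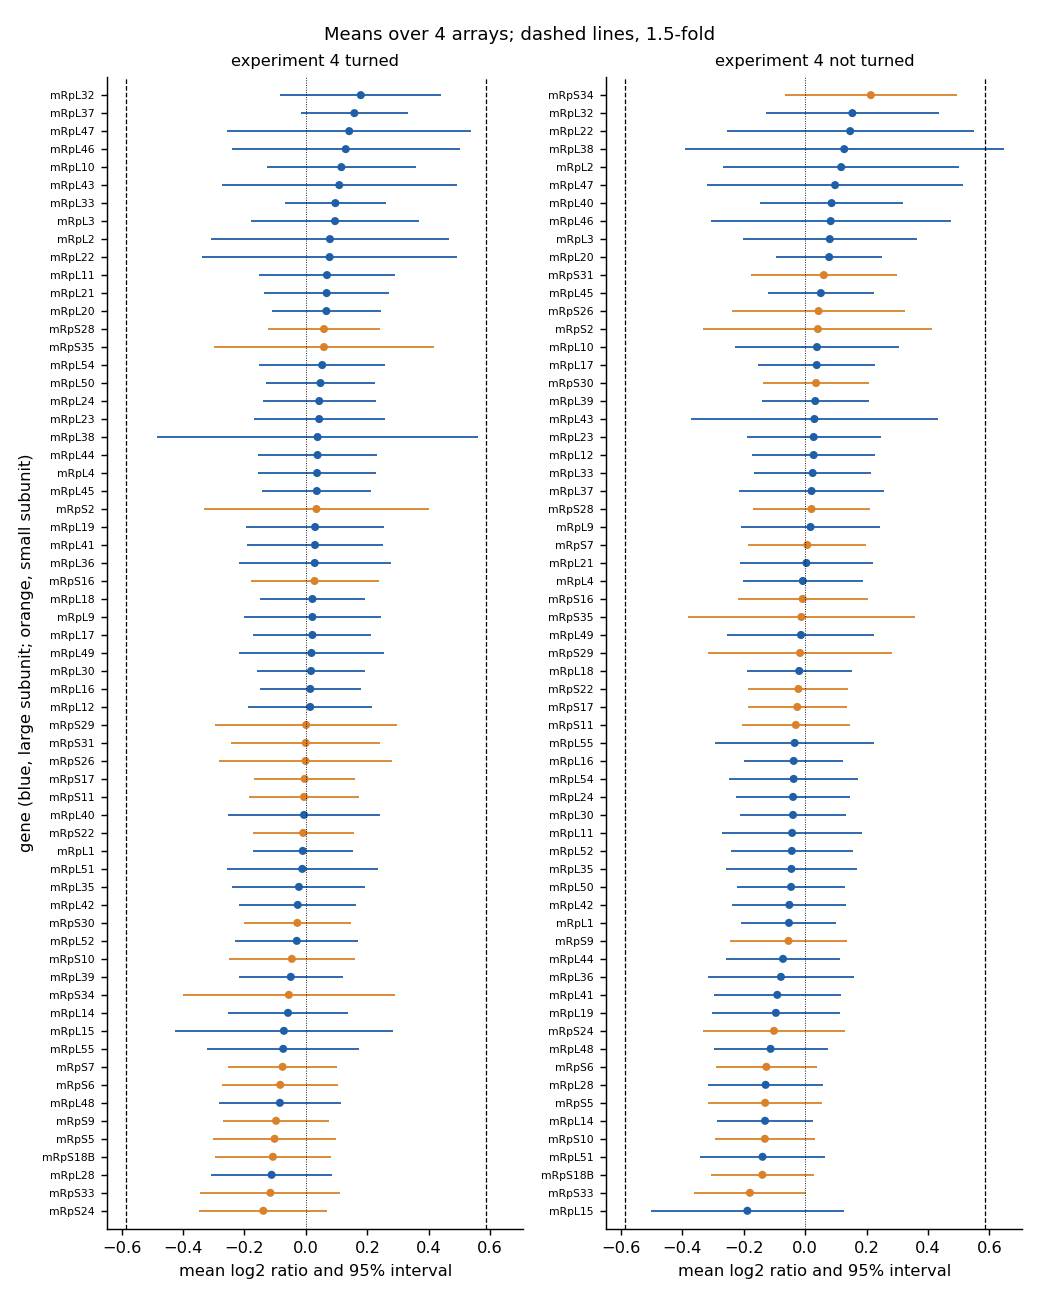
Mean log2 ratio over the 4 arrays with its 95% limma interval (horizontal axis) for each of the 63 genes (vertical axis), with experiment 4 turned on the left and not turned on the right, large subunit genes in blue, small subunit genes in orange and the 1.5-fold limit as dashed lines. All 63 intervals on the left and 62 on the right, all but that of mRpL38, stay between the dashed lines.

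A single sign on all 4 arrays was seen for 10 of 63 genes in the deposited ratios (all genes 10%), with mRpL20 above 0 and mRpL1, mRpL14, mRpL28, mRpL48, mRpS5, mRpS6, mRpS10, mRpS18B and mRpS33 below. With experiment 4 turned it was seen for 2 genes, mRpL37 and mRpS24 (all genes 12%). On experiments 3, 7 and 8 it was seen for 12 genes (all genes 22.1%). Signs are those of the average over spots, and clone RH18819 of mRpL14 was above 0 in experiment 7.

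Other nuclear genes for mitochondrial proteins also had medians above 0 in experiment 7 and below 0 in experiment 8. Of 81 oxidative phosphorylation genes, listed by symbol as subunits of the respiratory chain and ATP synthase, 53 were measured. Their medians were -0.031, -0.011, 0.15 and -0.097 in experiments 3, 4, 7 and 8. In 48 of these 53 genes experiment 7 was above experiment 8, with a median difference of 0.24. Other genes of mitochondrial gene expression, such as tRNA synthetases and translation factors, had medians of 0.012, -0.0076, 0.11 and -0.081, and 28 of 33 measured genes (of 43 listed) were higher in experiment 7 than in experiment 8. The cytoplasmic ribosomal protein genes, which encode the ribosome of the cytoplasm, had medians of -0.10, 0.0017, -0.031 and -0.051 over 31 of 86 genes, and experiment 7 was above experiment 8 in 17 of 31. No gene of these lists passed the limma threshold with experiment 4 turned or not. Unadjusted limma p was under 0.05 for RpS20 with experiment 4 turned, for RpL29 and RpS12 with it not turned, and for no other gene of these lists.

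The gene with the largest mean in size with experiment 4 turned is given for each of these lists. For ND-B14.5AL, of the oxidative phosphorylation list, the ratios were -0.21, -0.39, 0.42 and 0.30. Its value in experiment 8 was the highest of that list, whose median there was -0.097. For bsf, which encodes an RNA-binding protein of mitochondria, the ratios were 0.25, 0.48, 0.39 and -1.01, and for RpS20 they were -0.43, 0.082, -0.14 and -0.20. All 3 means had a limma adjusted p of 0.998 with experiment 4 turned. With it not turned the means were 0.029 in size for ND-B14.5AL, 0.027 for bsf and 0.17 for RpS20, and that of bsf was below that of tko (0.053), of the same list.

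Early zygotic genes, which mark older embryos, also lay on opposite sides of 0 in experiments 7 and 8, and maternal mRNAs were split. Of 22 listed early zygotic genes, which the embryo itself transcribes, 12 were measured. All 12 were below 0 in experiment 7 and above 0 in experiment 8. The medians of these genes were -0.20, -0.017, -0.52 and 0.49 in experiments 3, 4, 7 and 8. Their sign in experiments 7 and 8 was the reverse of that of most mitochondrial ribosomal protein genes, and their part in the result for those genes was not tested. The segmentation gene prd had ratios of -0.42, -0.082, -0.68 and 0.19. Maternal mRNAs had medians of 0.12, -0.13, -0.039 and -0.096 over 12 of 14 listed genes, and experiment 7 was above experiment 8 in 6 of 12. Among them stau, which encodes an RNA-binding protein of the oocyte, had -0.24, 0.0011, -0.39 and 0.11. It had the largest mean in size of that list with experiment 4 turned, but ran against most of it. The means of 11 of 12 maternal mRNAs, all but stau, were then above 0 (all genes 50.5%). With experiment 4 not turned, 5 of 12 were (all genes 45.9%). Of early zygotic genes, 2 of 12 means were above 0 in either reading. Experiment 7 minus experiment 8 ran from -0.50 for stau to 1.36 for exu. None of the genes of either list passed the limma threshold or had an unadjusted p under 0.05 with experiment 4 turned or not.

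**Figure D5:**
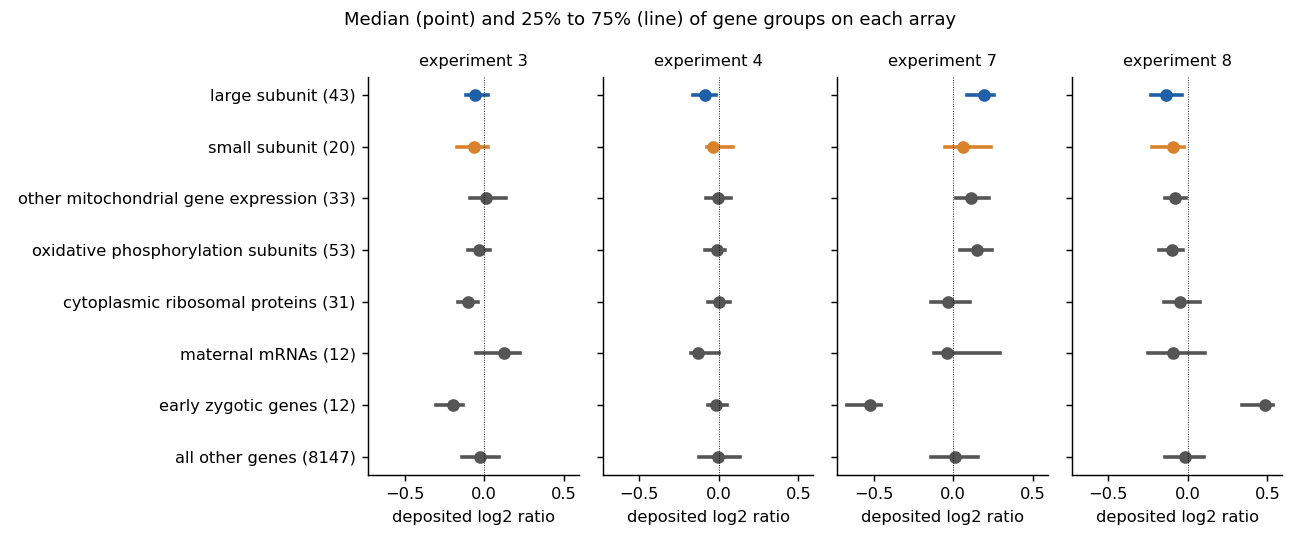
Median (point) and 25% to 75% range (line) of the deposited log2 ratio (horizontal axis) for gene groups (vertical axis, number of measured genes in parentheses), with 1 panel per array. The mitochondrial groups have medians above 0 in experiment 7 and below 0 in experiment 8, and early zygotic genes have medians of -0.52 and 0.49 there.

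The 63 genes were read by 81 spots, with 2 spots for 18 genes and 1 spot for 45. Over the 18 genes, the gap between the spots, averaged over arrays, had a median of 0.113 on the log2 scale, against 0.155 over 1110 other genes with 2 spots. The spots of mRpL21, mRpL9 and mRpL52 were closest, with gaps of 0.0403, 0.0618 and 0.0755. Those of mRpL12 were farthest apart, with a gap of 0.245. Its clone GM03767 had -0.038, -0.088, 0.071 and 0.013 in experiments 3, 4, 7 and 8, and its clone RE53508 had 0.083, 0.14, 0.36 and -0.32. The gap between experiments 7 and 8 was thus large in only 1 clone of mRpL12. In mRpL38 the gap was 0.166, but both clones showed the pattern, with 0.33, 0.27, 0.64 and -0.58 for RE63629 and 0.52, 0.085, 0.54 and -0.78 for RH61928. In mRpS6 the gap was 0.186. For mRpS24, clone RH54711 and its second printing were apart in experiment 8 (-0.26 and 0.13). For mRpS34 the first printing of clone RH64455 had no value in experiments 7 and 8, so that both values rest on the second printing.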

How the data were processed

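Total RNA of wounded and unwounded embryos was compared on 4 two-colour spotted cDNA arrays at 0 min. The deposited values are log2 ratios of the GenePix spot signals, which the authors normalized by loess on every array with limma. Their methods remove dim and questionable spots, and whether this preceded the deposited ratios is not known, as is the direction of the ratio. The limma version they used is not stated in the sources used here. From 12144 spots, 160 control spots were left out. Of 11984 probes, 9917 had 1 gene in the platform annotation, 625 several and 1442 none listed. Symbols were updated through the RefSeq table of Release 6, with 9746 matched by gene ID, 22 by symbol and 138 by synonym, and 11 kept as given. Spots of a gene were averaged per array, and 8210 genes with values on 3 or more arrays entered the test in limma 3.58.1 under R 4.3.3 (lmFit, eBayes, two-sided, Benjamini-Hochberg adjustment, adjusted p of 0.05 and a mean of 1.5-fold). The fit was checked on simulated data with noise independent between arrays. That check did not cover changes near 1.5-fold or noise shared between arrays.

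The members and lists were chosen with earlier results of these data known. Members were named where they had the largest means or smallest p (5 each, experiment 4 turned or not), were the 2 highest or 2 lowest on an array, had spots that were closest or farthest apart (3 each), held 1 sign on all arrays with the largest smallest size (3 as deposited, and both genes that did so with experiment 4 turned) or had the 3 smallest ranges over arrays. The gene with the largest mean of each list with experiment 4 turned, tko and bonsai were named too. Alternatives were experiment 4 not turned, a dye term, each array left out, centred or scaled arrays, all 4 arrays required, second printings left out, a fit per probe, symbols as given, and tko and bonsai added. Sequences and coordinates were not used here.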

Additional observations from a re-analysis of the deposited data

Results flagged for a closer look

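Values over the 4 arrays were screened for an array far from the other 3, in 78 sets of values from 39 genes or gene lists, each with experiment 4 as deposited and turned. Chance alone marks about 1 in 20 such sets when genes are not picked by their values, and 2 of the 78 were flagged, a smaller share. That rate does not strictly hold here, since many of these genes were named for extreme values. Among them, mRpS24 was named as the lowest gene in experiment 7. With experiment 4 turned, mRpS24 had its value of -0.39 in experiment 7 far below the other 3, with a gap to the nearest of 0.868 of the whole range. In the deposited ratios, bsf had its value of -1.01 in experiment 8 far below the other 3, with a gap of 0.846 of the range.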

How the results depend on the processing

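No paired analysis was possible because the arrays form 1 group and each ratio already holds both conditions. The count of genes past the limma threshold was 0 under every alternative run. The count at an unadjusted limma p under 0.05 ran from 0 to 1 when 1 array was left out with experiment 4 turned. The 1 was mRpL43 without experiment 8 (1.59%, all genes 6.74%). With experiment 4 not turned, added after seeing the data, the count ran from 0 to 2. These were mRpL15 and mRpL51 without experiment 7 (3.17%, all genes 2.63%) and mRpL38 without experiment 8 (1.59%, all genes 6.39%). The shares were thus near or below those over all genes. The cause was not tested. The median of the 63 means was -0.050 to 0.055 when 1 array was left out with experiment 4 turned. Signs of means were compared for the 26 of the 63 genes that met the rule for named genes, and not for the others described above. The mean had the other sign in 8 of the 26 without experiment 7 and in 3 to 5 without another array. It did so in 6 with the dye term, in 3 with experiment 4 not turned and in 14 with it not turned and without experiment 7. An equal sign in both readings does not show an equal direction, since the numerator is unknown. The number of genes with an interval within 1.5-fold was 56 to 62 when 1 array was left out with experiment 4 turned (88.9% to 98.4%, all genes 84.9% to 90.8%). The count with experiment 7 above experiment 8 was 55 of 62 genes without second printings and 57 of 65 with tko and bonsai. Spots without intensities could not be weighed by their signal over background.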

Other observations

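Clones of the arrays come from cDNA libraries of different tissues, named by the first letters of the clone, and spots of mitochondrial ribosomal protein genes were higher in experiment 7 than in experiment 8 more often than the other spots of the same library in the 4 libraries with 6 or more such spots. In the embryo library RE this held for 86.1% of 36 spots, against 55.4% of the spots of all other genes. In the head library RH it was 81.2% of 16 spots against 63.0%, in the embryo library LD 66.7% of 12 spots against 42.9%, and in the ovary library GM 83.3% of 6 spots against 51.6%. These shares are descriptions of spots that share arrays, and the differences were not tested.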
